A study of Mus musculus with 4 samples.

Results

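Tnf, Nfkbia, Nfkbiz, Tnfaip2, Tnfaip3, Icam1, Cd274 and Relb are 8 genes of the tumor necrosis factor (TNF) and NF-κB response that were chosen by name from 18738 gene symbols with at least 1 count. They were read in all 4 single-cell libraries of a mouse wound study, in gated cell classes, and in pairs within single neutrophils. The cells came from the skin around full-thickness wounds of C57/BL6j mice aged 6 weeks, taken on day 7 after wounding, with 1 library per mouse. The control group (Control 1 and Control 2) received phosphate-buffered saline (PBS) around the wound. The hucMSC-Exosomes group (hucMSC-Exo 1 and hucMSC-Exo 2) received exosomes, small vesicles released by cells, from human umbilical cord mesenchymal stem cells. All mice were wounded and injected, so no library shows unwounded skin. Group and replicate follow the titles of the deposited samples. File name letters of the matrices would group the 4 libraries otherwise, so directions between the groups hold only if the titles are right. Where 4 values of a gene are given, they follow the order Control 1, Control 2, hucMSC-Exo 1, hucMSC-Exo 2. The tissue label names parts of the gut while the cell type label says skin cells, and the tissue given here is that of the study's methods.

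NF-κB is a family of transcription factors that rest in the cytoplasm, held by inhibitors of the IκB family. When TNF, interleukin 1 or microbial products bind their receptors, the inhibitor is degraded, NF-κB enters the nucleus, and inflammatory genes are transcribed. Several of these targets feed back. Nfkbia encodes IκBα, the inhibitor that is made again after each stimulus, Tnfaip3 encodes A20, an enzyme that edits ubiquitin chains and ends the signal at the receptor, and Nfkbiz encodes IκBζ, a nuclear cofactor for a second set of targets. Tnf encodes the cytokine itself, and Relb a subunit of the alternative NF-κB pathway. Tnfaip2 is a TNF-induced gene, Icam1 encodes an adhesion molecule to which leukocyte integrins bind, and Cd274 encodes PD-L1, a ligand that restrains T cells. In a wound, neutrophils and macrophages are known sources and targets of this response.

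The 8 genes lie on 7 chromosomes, since Nfkbia and Tnfaip2 share chromosome 12, and are all annotated as protein coding (GENCODE, GRCm38, the build also called mm10). Tnf lies at chr17:35199381-35202007, Nfkbia at chr12:55489410-55492647, Nfkbiz at chr16:55811375-55838899, Tnfaip3 at chr10:19000910-19015657 and Relb at chr7:19606217-19629438, all on the minus strand. Tnfaip2 lies at chr12:111442469-111455018, Icam1 at chr9:21015985-21028817 and Cd274 at chr19:29367455-29388095, all on the plus strand. The 250 bases before the RefSeq start site were at hand for 6 of the 8 genes (GRCm38.p6). These windows were searched for GGANNNTCC, a core of κB sites that reads the same on both strands and was chosen after the sequences had been read. Of the 6 genes, 5 held a match, against 8.30% of 27025 genes in the same table. Because the motif was chosen after reading, this comparison is a description and no test of enrichment. Tnfaip3 has a pair of start sites there, and the window of the second, chr10:19011964-19012213, held none. Nfkbia held 2 matches, and its whole window, chr12:55492648-55492897 on the minus strand, is shown because this inhibitor was found in the largest share of neutrophils, on average over libraries. Capitals mark the matches, 178 to 170 and 29 to 21 bases before the start.
Nfkbia: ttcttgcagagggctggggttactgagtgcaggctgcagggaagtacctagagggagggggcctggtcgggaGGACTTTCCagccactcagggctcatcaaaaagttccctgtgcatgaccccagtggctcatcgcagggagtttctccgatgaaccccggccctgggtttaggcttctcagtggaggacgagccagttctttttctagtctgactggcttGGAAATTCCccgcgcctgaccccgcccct
The other 4 genes are shown with 10 bases on each side of the match, at chr9:21015777-21015805 (plus strand), chr17:35202201-35202229 (minus), chr12:111442564-111442592 (plus) and chr10:19015416-19015444 (minus). Their matches begin 153, 212, 87 and 24 bases before the RefSeq start. The stretches of Tnfaip2 and Tnfaip3 lie inside the GENCODE places given above, so they are upstream by the RefSeq start only.
Icam1: acttcagtttGGAAATTCCtagatcgcag
Tnf: acgacggggaGGAGATTCCttgatgcctg
Tnfaip2: gtccgccagcGGATTTTCCgcggttgcgg
Tnfaip3: tcacgtgactGGAATTTCCatcggaaatc
The window of Cd274 held none of these letters in this order. A match is a description of the letters and does not show that a factor binds there.

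The deposited values are whole numbers of unique molecular identifiers (UMIs), each standing for 1 captured transcript. Of 7178 barcodes, 6443 passed the filter of 200 to 3000 detected genes and a mitochondrial share of at most 10%, with 952 to 2074 cells and a median of 3747 to 4392.5 UMIs per library. Between 2 and 4 barcodes of a library also occurred in another library. A cell entered a class when it held UMIs of at least 3 markers of that class and a larger share of its list than of any other. None of the 8 genes was a marker. The 12 classes held 5645 cells, and 97.5% of the 1046 gated neutrophils lay in clusters that were also named as neutrophils from the same markers. Of the 157 gated dendritic cells, 15.3% lay in a cluster of that name, and 0 of the 152 gated NK cells did. A cluster was named when at least 50% of its cells were of a single class. Dendritic cells led an unnamed cluster of 331 cells (38.4% of it), and NK cells led an unnamed cluster of 307 cells (48.2%). The named clusters therefore give little or no check of these 2 classes. Neutrophils numbered 54, 348, 96 and 548 in the 4 libraries, and their median depth was 1886 to 2184 UMIs. The unit of level is CPM, which scales the UMIs of a gene in the summed cells of a class and library to 1000000 UMIs in total, for sums of at least 10 cells. Means are over these libraries, with the SD and n.

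**Figure D1:**
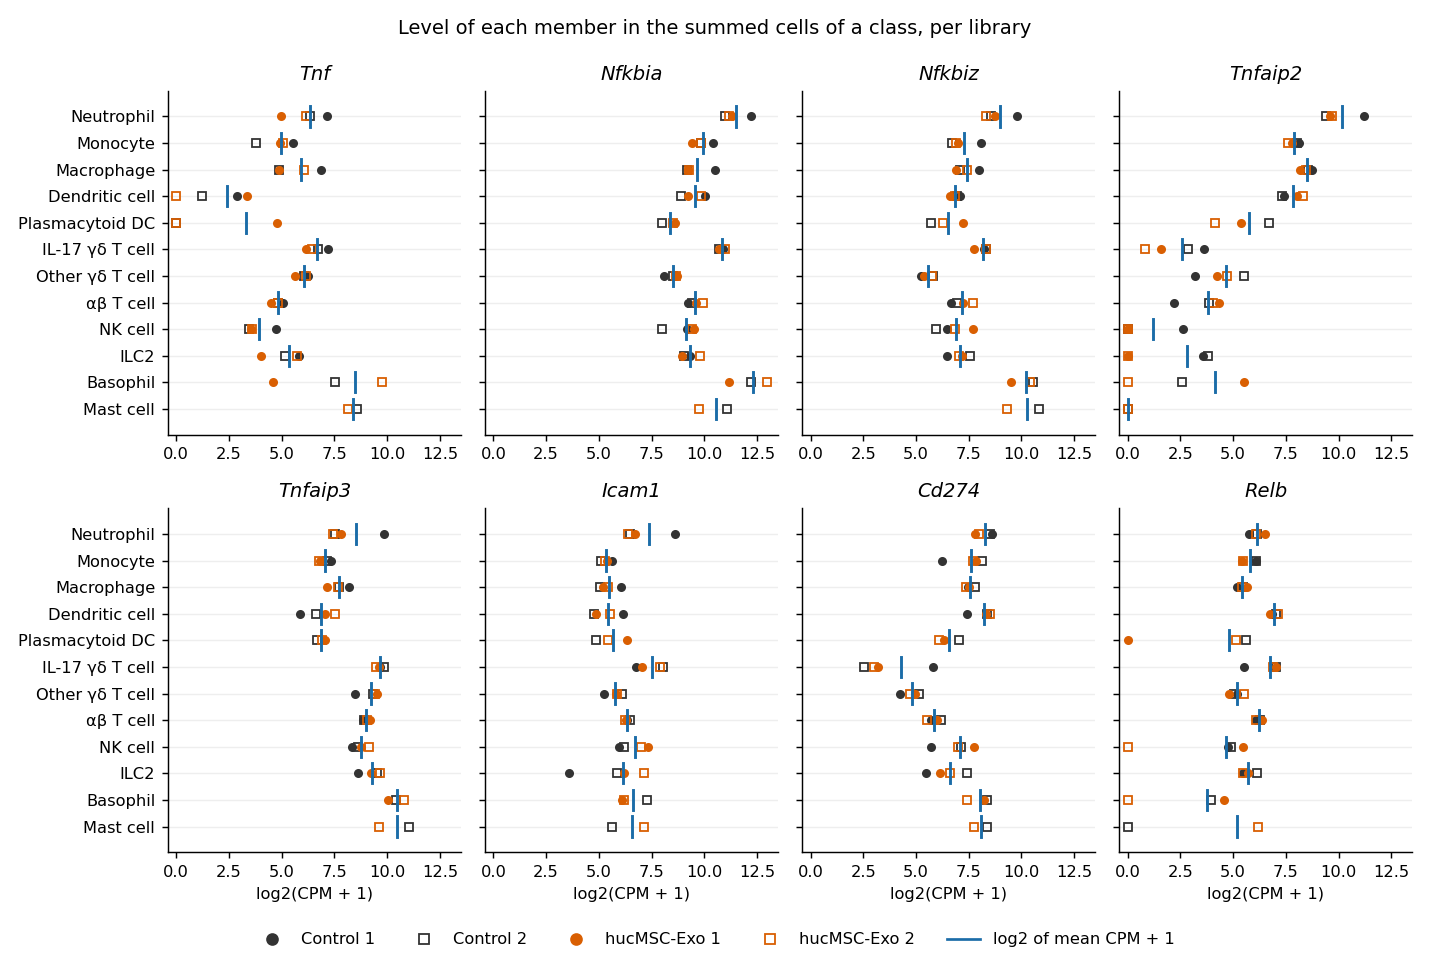
Level of each of the 8 genes as log2(CPM + 1) in 12 cell classes, with 1 point per library (filled for replicate 1, open for replicate 2) and a blue line at the log2 of the mean CPM + 1; black is Control and orange hucMSC-Exo. Tnfaip2 is higher in neutrophils, macrophages, monocytes and dendritic cells than in the lymphoid rows, and Nfkbia is highest in basophils and neutrophils.

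Tnf was highest in basophils and mast cells and lowest in dendritic cells. Basophils held 357 CPM ± 448 (SD, n = 3), with 181, 22.6 and 866 CPM in Control 2, hucMSC-Exo 1 and hucMSC-Exo 2. The 3 basophil values thus spread widely, and they rest on 55, 16 and 15 cells. Mast cells held 331 CPM ± 68.9 (SD, n = 2), from 13 UMIs. IL-17 γδ T cells, the interleukin 17 producing γδ T cells of skin, came next with 101 CPM ± 32.3 (SD, n = 4), before neutrophils with 80.8 ± 46.6 and other γδ T cells, mostly those of the epidermis by their markers, with 64.6 ± 11.6. Macrophages held 59.0 CPM ± 40.7 (SD, n = 4), and Control 1, at 114.5, was far above the other 3 libraries, which ranged from 28.4 to 64.5. Of the Control 1 macrophages, 136 lay in the cluster with more Tnf described below and 17 in the other large cluster. The part of this mix in the macrophage level was not tested. In dendritic cells 4 UMIs of Tnf were counted in 4 libraries, a mean of 4.23 CPM. Of the 11 steps between classes next to each other in this order, 1 passed the test, that from neutrophils to other γδ T cells (log2 fold change 0.86, SE 0.32, edgeR adjusted p = 0.0172), and this call was lost with total counts in place of TMM scaling (0.37, edgeR adjusted p = 0.313), with DESeq2 (0.227), without a library block (0.0663), without the upper limit of detected genes (0.135) and without Control 2 (0.165). Over all 8 genes, 15 of 88 such steps passed (28.9% of the tests of all genes over the same class pairs). Neighbours in a gene's own order are close by construction, so the percentage is no yardstick for that count. Over all pairs of classes 316 of 528 comparisons passed (29.4% of all genes), from 25 of 66 for Icam1 to 45 of 66 for Cd274.

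Nfkbia was highest in basophils, at 5039 CPM ± 2836 (SD, n = 3), and in neutrophils, at 2886 ± 1206 (SD, n = 4). IL-17 γδ T cells held 1809 CPM ± 182 (SD, n = 4), with 1899, 1638, 1678 and 2020.3 in the libraries. They stood apart from other γδ T cells, where the same libraries held 274, 359, 415 and 403 CPM. A UMI of Nfkbia was found in 95.9% of IL-17 γδ T cells and in 46.3% of other γδ T cells (means of 4 libraries), and in 70.5% and 21.6% after each cell was thinned to 1000 UMIs. Monocytes (964), macrophages (811), αβ T cells (764) and dendritic cells (755) held similar mean CPM, and no neighbours among these 4 differed beyond their spread. Plasmacytoid dendritic cells were lowest, with 333 CPM ± 72.4 (SD, n = 3).

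Nfkbiz followed an order like that of Nfkbia. Mast cells held 1220.4 CPM ± 827 (SD, n = 2), basophils 1186 ± 406 (SD, n = 3), neutrophils 499 ± 259 (SD, n = 4) and IL-17 γδ T cells 287 ± 49.9 (SD, n = 4). Other γδ T cells were lowest with 46.3 CPM ± 9.07, between 36.8 and 54.5 in the 4 libraries, below the lowest IL-17 γδ T cell value of 213. Across the 44 sums of a class and library, the genes whose log2(CPM + 1) was most like that of Nfkbia were Pim1 (Pearson's r = 0.89), Nfkbiz (0.88) and Srgn (0.83), out of 10455 genes. These correlations share libraries and classes and are a description. The genes most like Nfkbiz were Nfkbia (0.88), Tax1bp1 (0.85), an adaptor with which A20 acts, and Pim1 (0.81).

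The mean of Tnfaip3 was 1434 CPM ± 928 in mast cells (SD, n = 2) and 1388 ± 358 in basophils (SD, n = 3). Among lymphoid classes it ranged from 805 CPM ± 91.3 in IL-17 γδ T cells through 627 in group 2 innate lymphoid cells, 606 in other γδ T cells and 507 in αβ T cells to 425 ± 96.0 in NK cells (SD, n = 4). Neutrophils held 371 CPM ± 359 (SD, n = 4), and macrophages, monocytes, dendritic cells and plasmacytoid dendritic cells held 211, 129.5, 117 and 117. A UMI of Tnfaip3 was found in 69.8% to 91.1% of cells in the 5 lymphoid classes, on average over libraries, and in 34.1% of the shallower neutrophils. Steps that passed were those from basophils to IL-17 γδ T cells (log2 fold change 1.16, SE 0.32, edgeR adjusted p = 0.00499) and from neutrophils to macrophages.

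Relb was highest in dendritic cells, at 123 CPM ± 15.5 (SD, n = 4), with 114, 131, 107 and 141 in the libraries. IL-17 γδ T cells held 106 CPM ± 41.3, αβ T cells 73.5 ± 6.92, neutrophils 69.8 ± 14.8 and monocytes 55.0 ± 13.7 (SD, n = 4 each). Basophils, the class with the most Nfkbia, were lowest for Relb with 4 UMIs and a mean of 12.4 CPM (n = 3). The highest values of dendritic cells came from the cells with UMIs of at least 2 of Ccr7, Fscn1 and Ccl22, markers of mature dendritic cells that move to lymph nodes. These 44 cells held 289 CPM of Relb when pooled, against 73.7 in the other 113 dendritic cells, and in each of the 4 libraries they were higher (424, 278, 471 and 246 against 46.2, 68.7, 67.1 and 98.6). Cd274 was at 475 against 266 CPM in the same cells, and higher in each library. This split was chosen after values had been seen and was not tested, and 2 of the libraries held 3 such cells each.

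Tnfaip2 was a myeloid gene here, and neutrophils held the most. Their mean was 1151 CPM ± 791 (SD, n = 4), against 362 ± 59.6 in macrophages, 238 ± 38.4 in monocytes and 228 ± 76.6 in dendritic cells. Plasmacytoid dendritic cells held 53.6 CPM, other γδ T cells 24.1, and the remaining classes at most 16.7, with 0 UMIs in the 15 and 11 mast cells of Control 2 and hucMSC-Exo 2, which allows up to 142 and 212 CPM. The cluster named as plasmacytoid dendritic cells held 42 of the 54 gated cells and 0 CPM of Tnfaip2. The 27 UMIs of the gated class thus came from gated cells outside that cluster. A UMI was found in 67.1% of neutrophils at their lower depth but in 1.92% of αβ T cells, 1.98% of IL-17 γδ T cells and 0.641% of NK cells (means of 4 libraries), with a median of 3919 to 5248 UMIs per cell in αβ and IL-17 γδ T cells. S100a8, a neutrophil gene, was found in 1.89% to 21.4% of αβ T cells. Krt14, a keratinocyte gene that neutrophils and T cells should lack, was at 767 to 1328 CPM in neutrophils and 273 to 411 in αβ T cells, so these T cells need not give the level that free RNA reaches in neutrophils. The part of free RNA was not tested. The step from neutrophils to macrophages had a log2 fold change of 1.79 (SE 0.27, edgeR adjusted p = 2.43e-07). The most similar genes over the 44 sums were Wfdc17 (r = 0.95), Tgm2 (0.90) and Clec4n (0.90).

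Icam1 was highest in IL-17 γδ T cells and neutrophils, at 185 CPM ± 77.6 and 166 ± 151 (SD, n = 4). In IL-17 γδ T cells the libraries held 106, 263, 133 and 239 CPM, and in neutrophils 392, 88.4, 104 and 81.1, so Control 1 was lowest in the first class and highest in the second. Monocytes, dendritic cells and macrophages were lowest, with 39.9, 42.0 and 43.7 CPM. NK cells lay between, at 105 CPM ± 47.1, and the step from neutrophils to NK cells passed narrowly (log2 fold change 0.88, SE 0.38, edgeR adjusted p = 0.0496). A UMI of Icam1 was found in 49.1% of IL-17 γδ T cells, and in 14.8% when cells were thinned to 1000 UMIs, against 16.2% and 11.9% for neutrophils.

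Cd274 was highest in neutrophils, at 304 CPM ± 80.5, and in dendritic cells, at 294 ± 84.3 (SD, n = 4 each), which did not differ (log2 fold change 0.14, SE 0.26, edgeR adjusted p = 0.678). Mast cells held 272 CPM, basophils 264, monocytes 197 and macrophages 186. From there the order fell through NK cells (133), group 2 innate lymphoid cells (95.3), plasmacytoid dendritic cells (93.2) and αβ T cells (57.5) to other γδ T cells (27.0) and IL-17 γδ T cells (18.9). IL-17 γδ T cells were thus at the top of the order for Icam1 and at the bottom for Cd274. The steps from macrophages to NK cells, from αβ to other γδ T cells and from other to IL-17 γδ T cells passed the test, with edgeR adjusted p = 0.022, 0.00308 and 0.028. In the last of these steps the mean of IL-17 γδ T cells rests on Control 1, at 55.7 CPM, while the other 3 libraries held 4.73 to 8.04.

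**Figure D2:**
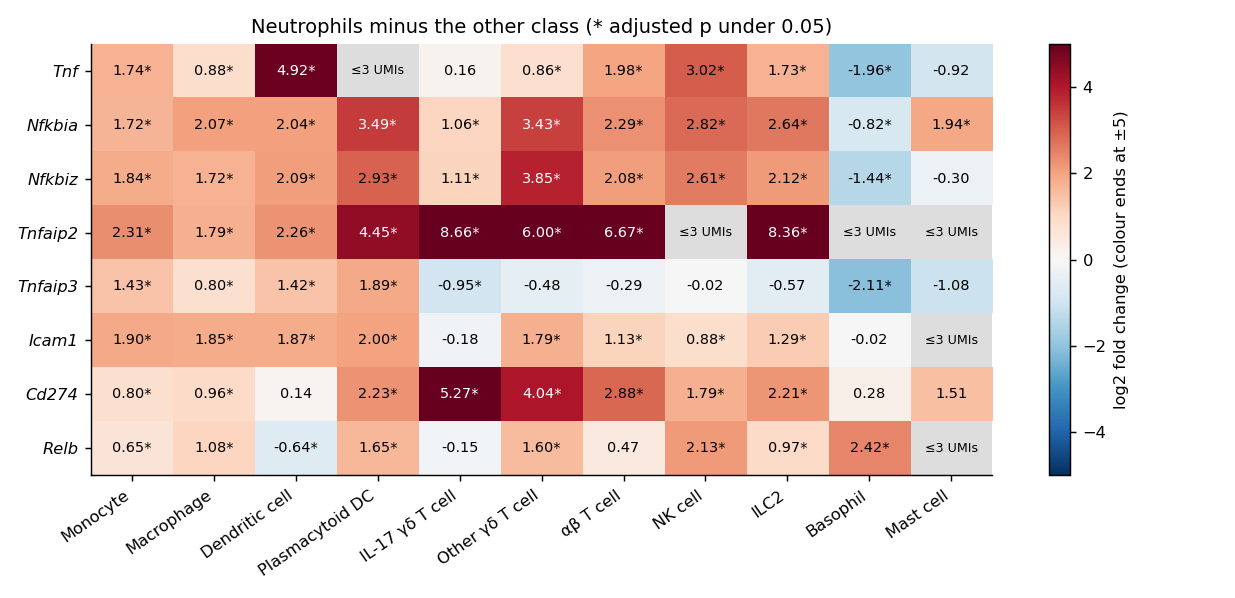
Log2 fold change of each gene between neutrophils and each of 11 other classes, from 1 edgeR fit with library as a block. Red cells are higher in neutrophils, blue cells lower, an asterisk marks an adjusted p under 0.05, and grey cells had at most 3 UMIs in the other class; the basophil column holds 4 of the blue cells with an asterisk.

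Against monocytes and macrophages, the other inflammatory phagocytes of the wound, neutrophils were higher in all 8 genes relative to total UMIs. Neutrophils were shallower, with median UMIs of 1886 to 2184 against 6286 to 8101 and 6381 to 7789. Without thinning, a smaller mean share of neutrophils held Relb (13.9% against 27.1% and 21.7%), Cd274, Tnfaip3, Tnf, Icam1 and Nfkbia, and a larger share Nfkbiz and Tnfaip2. In thinned cells neutrophils had the larger share throughout, except for Tnf against macrophages (5.37% against 5.59%). In both contrasts 8 of 8 genes passed, at 44% and 54.5% called among all 8509 genes tested. The median log2 fold change of the 8 genes was 1.73 against monocytes and 1.40 against macrophages, where all genes had a median of -0.07 and -0.17. The largest were Tnfaip2 against monocytes (2.31, SE 0.29) and Nfkbia against macrophages (2.07, SE 0.28). Krt14 was at 767 to 1328 CPM in neutrophils, 167 to 374 in monocytes and 180.1 to 338 in macrophages, with a UMI in 69.1% to 91.5% of the cells of these classes. The part of free RNA in the contrasts was not tested. The smallest did not hold throughout. Cd274 against monocytes (0.80, edgeR adjusted p = 0.00934) was lost without a library block (0.0566) and without the upper limit of detected genes (0.137). Relb against monocytes (0.65, edgeR adjusted p = 0.0401) was lost in the same settings (0.0701 and 0.125), with total counts (0.0909), without a filter on low counts (0.169), and without Control 2 (0.127), hucMSC-Exo 1 (0.12) or hucMSC-Exo 2 (0.219). Tnf against macrophages (0.88, edgeR adjusted p = 0.0137) was lost with total counts (0.0594), with DESeq2 (0.146), without a library block (0.105), without Control 2 (0.376) and without hucMSC-Exo 2 (0.0533). Tnfaip3 against macrophages (0.80, edgeR adjusted p = 0.0204) was lost with total counts (0.0534), without Control 1 (0.108) and without hucMSC-Exo 1 (0.0821).

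Other genes of the pathway were read from fixed lists in the same contrasts. Among all 8509 genes, 21.2% and 25.3% were called higher in neutrophils, and 22.7% and 29.2% lower. Taken in either direction, the counts of the signalling and immediate early lists lay near the 44% and 54.5% of all genes. They do not set these lists apart. Of 22 targets, 15 were higher and 1 lower in neutrophils than in monocytes, and 16 were higher and 2 lower than in macrophages, with medians of 1.43 and 1.51. The leading targets were Csf1, a growth factor for macrophages (7.57 and 5.81 on the log2 scale), Ccrl2, a chemerin-binding receptor (4.30 and 3.19), and the chemokine gene Ccl3 (3.92 and 2.92). Gadd45b, an early stress gene, stood at 2.84 and 2.39. Sdc4, a syndecan, was lower in both contrasts (-1.72 and -2.61). Of 9 receptors, 4 were higher in both contrasts, with Il1r2, the decoy receptor for interleukin 1 (3.15 and 4.04), and the TNF receptor genes Tnfrsf1b (1.02 and 1.41) and Tnfrsf1a (0.88 and 1.63) among them. Cd40 was lower, at -4.36 and -4.33. Among 14 signalling genes tested, 5 and 6 were higher and 2 were lower in each contrast, led by Irak3, an inhibitor of Toll-like receptor signalling (2.89 and 2.62), and including Birc3 (1.08 and 1.35), a ubiquitin ligase of the TNF receptor complex. Of 10 other inhibitors, 5 were higher in both contrasts, namely Cyld (1.67 and 1.66), Nfkbid (1.67 and 1.40), Zc3h12a (1.25 and 0.90), Tnip1 (1.22 and 1.66) and Bcl3 (0.89 and 1.59). Tnip3 was lower, at -5.31 and -3.95. Of the 4 transcription factor genes, Nfkb2 was higher in both contrasts (0.95 and 1.31). Of 11 immediate early genes, which rise when tissue is dissociated, 4 were higher and 2 lower in each contrast, with Dusp1, Egr1, Ier2 and Jun higher and the heat shock genes Hspa1a and Hspa1b lower. Their part in the values of the 8 genes was not tested.

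Against dendritic cells 6 of the 8 genes were higher in neutrophils and Relb was lower (48.6% of all genes called). Relb fell by 0.64 on the log2 scale (SE 0.26, edgeR adjusted p = 0.0349), a call that was lost with DESeq2 (0.0702), with RLE scaling (0.122), and without Control 1 (0.104), Control 2 (0.144) or hucMSC-Exo 2 (0.196). Tnf passed too (4.92), a fold that rests on 4 UMIs in dendritic cells. Against αβ T cells 6 genes were higher and none lower (59.2% called), and Tnfaip3 (-0.29) and Relb (0.47) did not pass, although without Control 1 Tnfaip3 passed as lower (-0.83, edgeR adjusted p = 0.00345) and Relb as higher (0.62, 0.0294). Mean CPM of Relb put αβ T cells (73.5) above neutrophils (69.8), the opposite order to this fit with TMM scaling, and with total counts the difference was 0.07. Against other γδ T cells 7 were higher (62.2% called), with the exception of Tnfaip3 at -0.48 (SE 0.30, edgeR adjusted p = 0.157), which passed as lower with total counts (-0.87, edgeR adjusted p = 0.0124) and without Control 1 (-1.14, 8.55e-05). Of the 22 targets 21 were higher than in other γδ T cells, as were all 4 transcription factor genes.

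Against IL-17 γδ T cells 4 genes were higher and 1 lower in neutrophils (57.2% called). Nfkbia (1.06, SE 0.28), Nfkbiz (1.11, SE 0.28), Tnfaip2 (8.66) and Cd274 (5.27) were higher, while Tnfaip3 fell by 0.95 (SE 0.30, edgeR adjusted p = 0.00603). The last call was lost with DESeq2 (0.0542) and without Control 2 (0.0604). Tnf (0.16), Icam1 (-0.18) and Relb (-0.15) did not pass, and with total counts Tnf turned to -0.22 and Relb passed as lower (-0.55, edgeR adjusted p = 0.0472). Icam1 passed as lower without Control 1 (-0.68, edgeR adjusted p = 0.0171).

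Basophils were the class against which the most members passed as lower in neutrophils, namely 4 of 8. Tnf (-1.96, SE 0.40), Nfkbia (-0.82, SE 0.30), Nfkbiz (-1.44, SE 0.32) and Tnfaip3 (-2.11, SE 0.34) were lower in neutrophils, and Tnfaip2 and Relb were higher, so 6 of 8 passed (23.3% called among all genes). All genes together had a median of 0.68 in this contrast, and the same 4 and 2 genes counted in each direction with total counts. Only 86 basophils from 3 libraries stand behind these values. Without Control 2, which held 55 of them, 3 of the 8 genes passed and Nfkbia (edgeR adjusted p = 0.44), Nfkbiz (0.149) and Relb (0.0848) were lost, and without hucMSC-Exo 2 Tnf (0.119) and Nfkbia (0.248) were lost. Ccl3 was lower in neutrophils than in basophils by 4.62 on the log2 scale. Of the 11 immediate early genes 7 were lower and 1 higher in neutrophils, and their summed level was 6648 to 17753 CPM in basophils against 5104 to 12265 in neutrophils. The part of dissociation in this difference was not tested. Against mast cells, from 2 libraries, Tnf (-0.92), Nfkbiz (-0.30) and Tnfaip3 (-1.08) were also lower in neutrophils, but none passed. Nfkbia (1.94) and Tnfaip2 passed as higher in neutrophils (14.0% of all genes called). With total counts 2 of the 8 genes passed as lower and 1 as higher.

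Basophils were also compared with αβ T cells, IL-17 with other γδ T cells, and dendritic cells with macrophages, 3 pairs that were chosen after values had been seen. In basophils Tnf (3.95), Nfkbiz (3.52), Nfkbia (3.11), Cd274 (2.61) and Tnfaip3 (1.81) were higher than in αβ T cells on the log2 scale and Relb lower (23.8% of all genes called, median of all genes -0.76). Of 22 targets 15 were higher, led by Ccl3, Ccl4 and Il1b, and 9 of 11 immediate early genes were higher as well. IL-17 γδ T cells exceeded other γδ T cells in Nfkbiz (2.74), Nfkbia (2.36), Icam1 (1.97) and Relb (1.76) and were lower in Tnfaip2 and Cd274 (36.7% called, median of all genes -0.15). All 4 transcription factor genes were higher in them, with Nfkb1 at 2.86, Nfkb2 at 2.26, Rel at 1.58 and Rela at 0.74, and Il1r1, the signalling receptor for interleukin 1, at 4.79. Of 11 immediate early genes none was higher in IL-17 γδ T cells and 6 were lower, Fos, Fosb, Jun and Egr1 among them. Dendritic cells exceeded macrophages in Relb (1.72) and Cd274 (0.81) and were lower in Tnf (32.4% called, median of all genes -0.10). Of 22 targets 12 were lower and 2 higher in dendritic cells, as were 5 lower and 2 higher of 9 receptors, and 7 of 11 immediate early genes were lower. Map3k14, the kinase of the alternative NF-κB pathway, was higher in dendritic cells by 3.32 and Rel by 2.12.

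Within macrophages the genes differed between the 2 large clusters, which were made without the 8 genes and picked for comparison after values had been seen. The cluster led by Ccl8, Ccl12, Folr2 and C1q genes (399 gated macrophages) held 133, 83.6, 99.7 and 120.4 CPM of Tnf. The cluster led by Pdpn, Arg1 and Mmp19 (568 cells) held 44.6, 15.8, 14.1 and 27.7. The clusters did not overlap over libraries in Tnf, and pooled values were 113 against 18.2 CPM. The Control 1 value of the second cluster rests on 17 cells and 7 UMIs of Tnf. In Control 1 the first cluster held 136 gated macrophages and the second 17. These counts were 110 and 297 in Control 2, 50 and 143 in hucMSC-Exo 1, and 103 and 111 in hucMSC-Exo 2. Levels of all macrophages of a library thus also follow this mix. Nfkbiz was at 270.1 against 89.4 and Icam1 at 65.6 against 28.7 CPM, higher in the first cluster in every library. Cd274 went the other way, at 119 against 239 CPM, lower in the first cluster in every library. These values are a description and were not tested. Clusters are formed to differ in expression, and how many of all genes separate in every library was not counted. In neutrophils, the small cluster led by Ifit1, Rsad2 and Isg15, genes induced by interferon (77 cells), held 538 CPM of Cd274 against 286 in the main cluster of 943 cells, with 887, 644 and 428 against 294, 349 and 254 CPM in Control 1, Control 2 and hucMSC-Exo 2. In hucMSC-Exo 1 that cluster was a single cell with no UMI of Cd274. Regulatory T cells, here the 217 αβ T cells with a UMI of Foxp3, held 12.9 CPM of Tnf against 33.2 in the other 585, and less in each library. The values of the regulatory T cells rest on 1, 9, 2 and 4 UMIs of Tnf, and the difference was not tested.

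**Figure D3:**
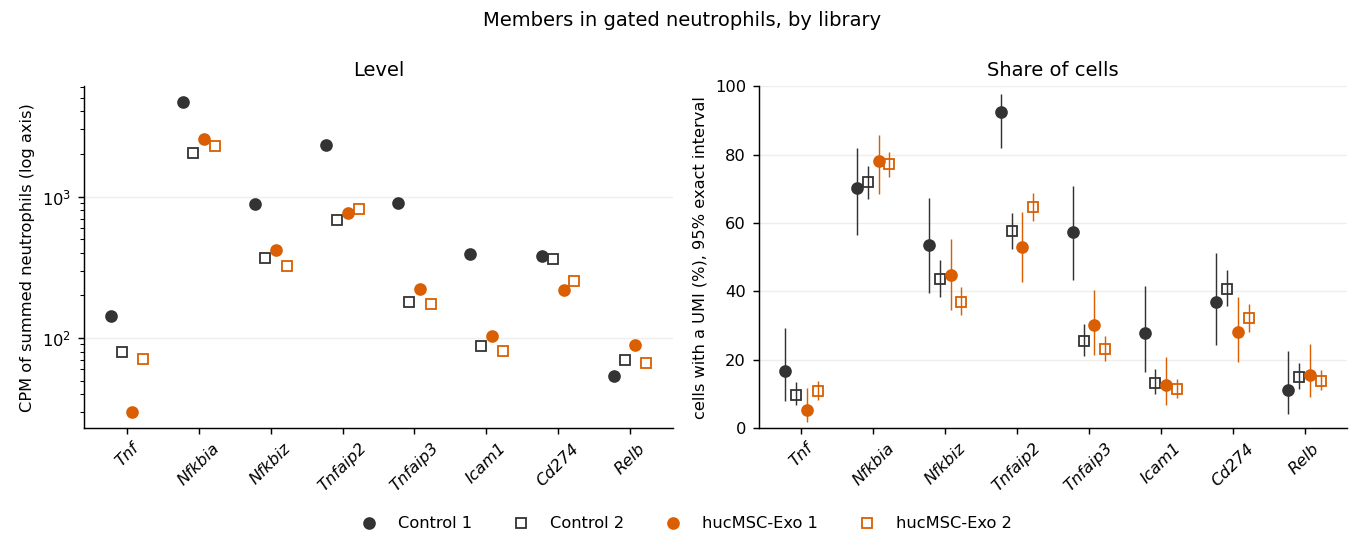
The 8 genes in gated neutrophils of each library, as CPM on a log axis (left) and as the share of cells with a UMI with its 95% exact interval (right). Control 1 (filled dark circles) is the highest library for 7 genes on the left and stands apart most in Tnfaip2, Tnfaip3 and Icam1. The 2 groups of Cd274 do not overlap on either side, a separation that was not counted over all genes.

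In neutrophils the library Control 1 stood apart. Tnfaip3 was at 909, 180.4, 223 and 173 CPM, and Icam1 at 392, 88.4, 104 and 81.1. Tnfaip2 was at 2334, 679, 768 and 822 CPM, and Nfkbiz at 882, 369, 421 and 323. In each of these genes the 3 other libraries lay close together and Control 1 was 2.38 to 4.73 times their mean. Nfkbia was at 4667, 2039.0, 2562 and 2277 CPM and Tnf at 143, 79.9, 29.7 and 71.0, or 2.04 and 2.37 times the mean of the others in Control 1. Cd274 was at 383, 361, 218 and 253 CPM, and Relb was lowest in Control 1, at 53.4 CPM against 66.4 to 89.2. Control 1 was also the highest library for 7 of the 8 genes in monocytes and 6 in macrophages, but for 1 to 3 of them in each lymphoid class and in dendritic cells. Its 54 neutrophils held 57237 CPM of the 10 neutrophil markers together, against 112821 to 123029 in the other libraries, and 12265 CPM of immediate early genes, against 5104 to 6292. The part of these differences in the levels of the 8 genes was not tested. Of the lists of other cells, Control 1 was lowest in the osteoclast-like macrophage list (196 CPM against 609 to 786) and highest in the basophil list (142 against 14.9 to 101, with 1 of 8 markers found). It lay within the range of the others for 5 keratinocyte markers (2334 against 1446 to 2487) and 10 macrophage markers (882 against 793 to 960.5), and held no UMI of the αβ T cell, mast cell and endothelial lists. Their part was not tested.

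By share of cells, a UMI of Nfkbia was found in 70.4%, 72.1%, 78.1% and 77.4% of neutrophils and one of Tnfaip2 in 92.6%, 57.8%, 53.1% and 64.8%. Nfkbiz was found in 53.7%, 43.7%, 44.8% and 37.0%, Cd274 in 37.0%, 40.8%, 28.1% and 32.1%, and Tnfaip3 in 57.4%, 25.6%, 30.2% and 23.2%. Icam1 (27.8%, 13.2%, 12.5% and 11.3%), Relb (11.1%, 14.9%, 15.6% and 13.9%) and Tnf (16.7%, 9.77%, 5.21% and 10.8%) were found in fewer cells. For Tnf in Control 1 the exact Clopper-Pearson 95% interval ran from 7.92% to 29.3% (9 of 54 cells). Such intervals cover counting error only. Hence the Tnf shares rest on 9, 34, 5 and 59 cells and those of Nfkbia on most neutrophils. A neutrophil held UMIs of 3.67, 2.78, 2.68 and 2.70 of the 8 genes on average, and of 2.96, 1.90, 1.93 and 1.86 when thinned to 1000 UMIs.

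**Figure D4:**
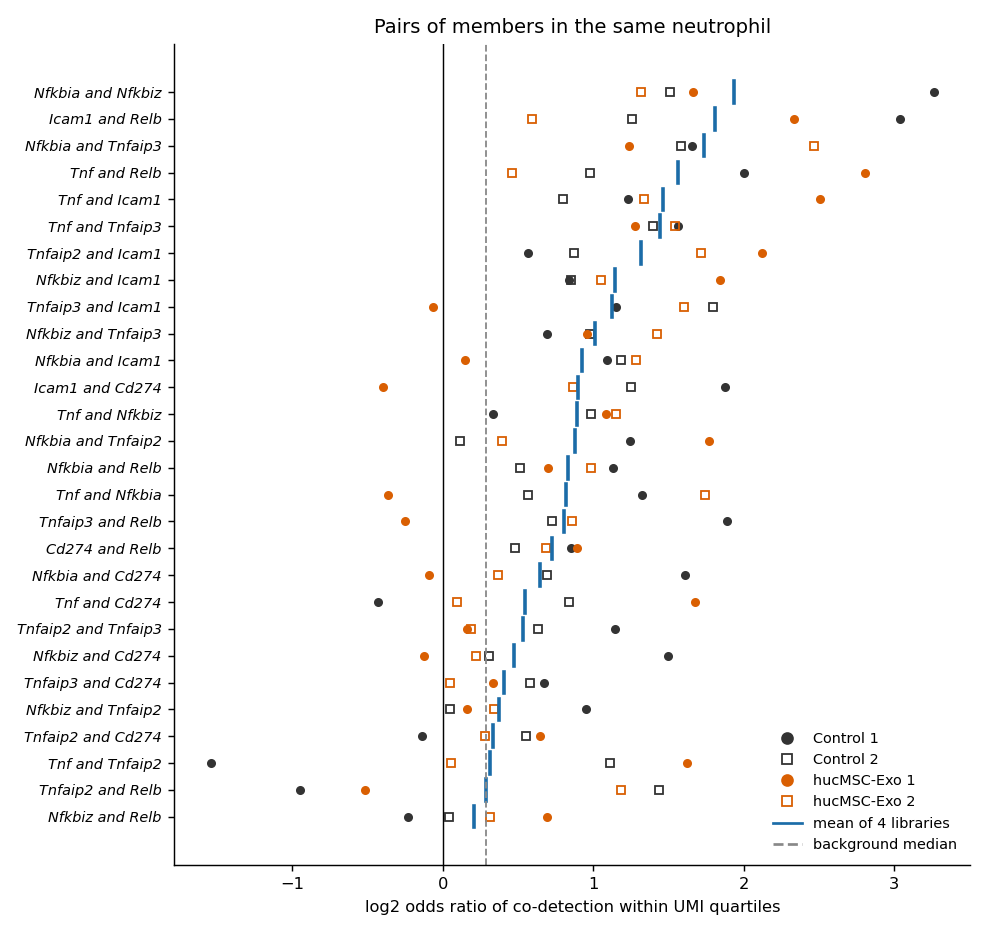
Log2 odds ratio of finding both genes of a pair in the same neutrophil, within quartiles of UMIs, for all 28 pairs (1 point per library, blue line at the mean of 4 libraries). All 28 means lie to the right of 0, and 27 lie to the right of the dashed line, the median of 1768140 other gene pairs.

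Within single neutrophils, pairs of the 8 genes were found together at higher odds than most pairs of other genes. For each pair the odds of finding both genes in a cell were taken within quartiles of UMIs, since deeper cells hold more of any gene. In each quartile 0.5 was added to the counts of cells with both genes, either alone or neither. This addition weighs on genes found in few cells, and its part in the values was not tested. Pairs of 1881 genes found in the same range of shares, 10.6% to 74.5% of neutrophils, served as the background. The median log2 odds ratio of the 28 pairs was 0.86, with 1.14, 0.85, 0.80 and 0.87 in the libraries. The background median was 0.29, and 76.6% of background pairs were above 0. The median with background genes differed by gene, at 0.55 for Tnf, 0.41 for Icam1 and 0.38 for Relb but -0.10 for Nfkbia and Tnfaip2. The background was not matched to these baselines, so counts of pairs above it favour genes with higher ones. For every gene the median with the other members lay above its own baseline, between 0.38 for Tnfaip2 and 1.15 for Icam1. Of the 28 pairs, 17 were above 0 in all 4 libraries, 10 in 3 and 1 in 2, and 10 pairs exceeded 95% of the background pairs. Where few cells hold a gene, the added 0.5 can set the sign. Tnf with Nfkbia was at -0.36 in hucMSC-Exo 1, although all 5 cells with Tnf held Nfkbia there. Cells of a mouse are not replicates, so these values carry no p. With cells thinned to 1000 UMIs the median was 0.90 and 26 of 28 pairs were above 0.

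The pair found together most was Nfkbia with Nfkbiz, with a mean log2 odds ratio of 1.94 ± 0.90 (SD, n = 4) and 28, 128, 40 and 179 double-positive neutrophils where independence gives 20.4, 110, 33.6 and 157. Icam1 with Relb followed at 1.81, from 5, 12, 5 and 12 double-positive cells, and Nfkbia with Tnfaip3 at 1.74 ± 0.52, from 26, 78, 27 and 121. When cells were thinned, Icam1 with Relb was at 1.48 and Nfkbia with Tnfaip3 at 1.97. Without thinning, Tnf was most linked to Relb (1.56, from 2, 8, 3 and 10 double-positive cells), Icam1 (1.47, from 4, 6, 2 and 13) and Tnfaip3 (1.44 ± 0.13). The value with Tnfaip3 was the most even over libraries, between 1.28 and 1.56. In thinned cells Tnf was most linked to Icam1 (1.70) and Tnfaip3 (1.61). There Relb (0.84) fell below Cd274 (1.51), Nfkbia (1.41) and Nfkbiz (1.16), so the first place of Relb did not hold. Nfkbia was found in 100%, 82.4%, 100% and 94.9% of neutrophils with a UMI of Tnf, and in 64.4%, 71.0%, 76.9% and 75.3% of those without. Tnfaip3 was found in 88.9%, 44.1%, 60% and 44.1% of the first and 51.1%, 23.6%, 28.6% and 20.7% of the second. The cells with Tnf were slightly deeper, with medians of 1902 to 2296 UMIs against 1875 to 2158. Without thinning, Nfkbiz with Relb was the lowest pair (0.21), and Tnfaip2 with Relb was the one that was above 0 in 2 libraries (0.29 ± 1.20). In thinned cells Tnfaip3 with Cd274 was lowest (-0.28).

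Among the background genes, the partners of each member differed. Nfkbia was found most with Nfkbiz and Tnfaip3, then with Nr4a1 (1.36), an immediate early nuclear receptor gene, and Ccl3 (1.19). Tnfaip3 was found most with Nfkbia and Tnf, then with Birc3 (1.30), Zc3h12a (1.26) and Nlrp3 (1.24), which encodes the sensor of an inflammasome. Icam1 was found with Bcl2a1d (2.21), an anti-apoptotic gene with close paralogs among which reads can be shared, and with the NF-κB subunit genes Nfkb1 (1.92) and Rel (1.90). Cd274 was found with Parp14 (1.47) and Oas3 (1.29), which are induced by interferon, and not with another of the 8 genes among its 5 highest partners. Tnf was found most with Dusp2 (2.33), a phosphatase of MAP kinases. These partners were picked as the highest of all background genes and their values are a description.

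**Figure D5:**
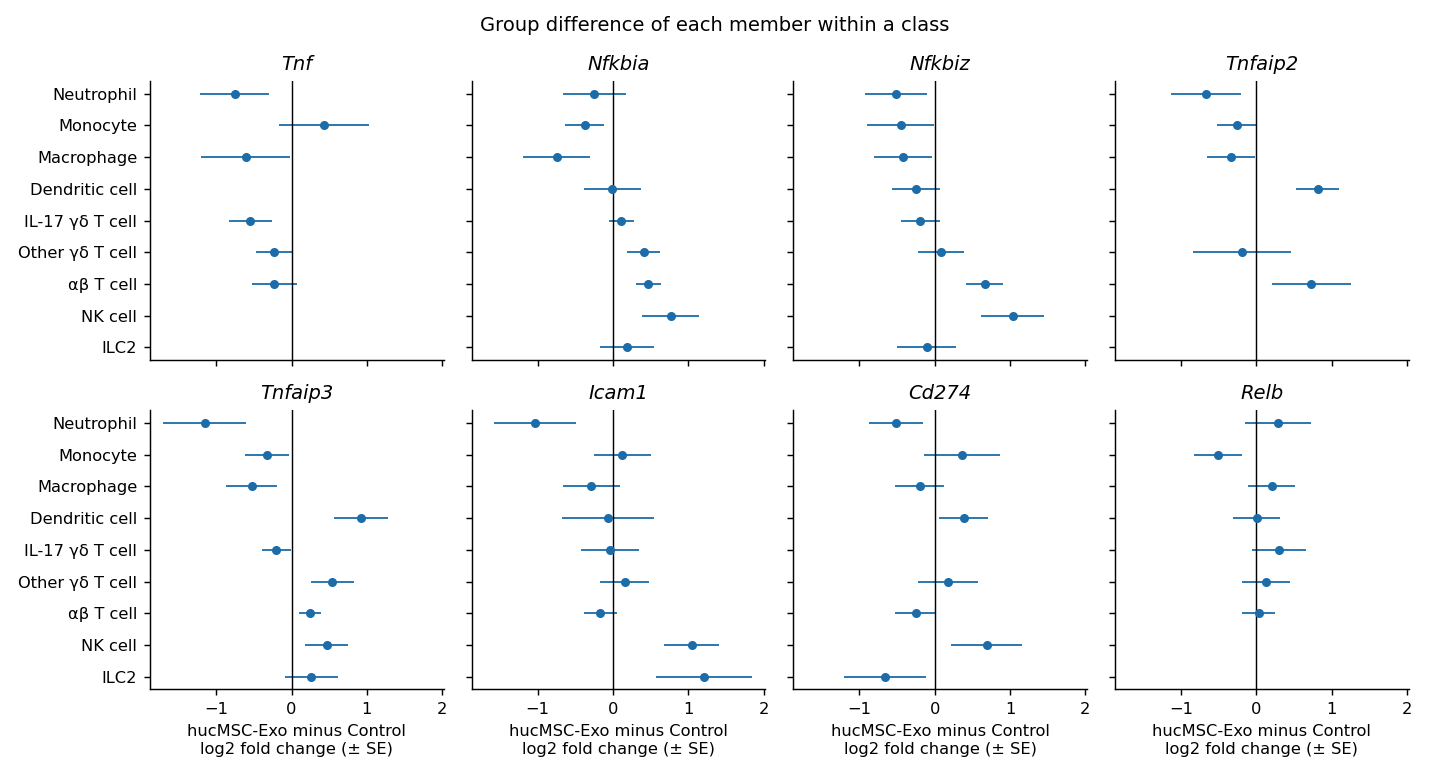
Log2 fold change of each gene between the hucMSC-Exosomes and control groups within 9 cell classes (points, with the SE as bars, from an edgeR fit of 2 against 2 libraries per class). Neutrophil, monocyte and macrophage points lie mostly left of 0 and αβ T cell and NK cell points mostly right, and none passed an adjusted p of 0.05.

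Between the hucMSC-Exosomes and control groups no gene was called in any of the 9 classes with at least 2 libraries per group (0% called by the quasi-likelihood test of edgeR). Per class 2376 to 8098 genes were tested, 44 to 383 had an unadjusted p under 0.05, and DESeq2 called 0 to 2. In neutrophils 7 of the 8 genes were lower in the hucMSC-Exosomes group, with a median log2 fold change of -0.59 against 0.01 over all 4169 genes. Tnfaip3 had the lowest value (-1.15, SE 0.55, unadjusted p = 0.0546, edgeR adjusted p = 0.999), then Icam1 (-1.04, SE 0.55) and Tnf (-0.75, SE 0.46). These values turn on Control 1. Without it Icam1 was at 0.00, Tnfaip3 at 0.09, Tnfaip2 at 0.21 and Nfkbia at 0.23. Cd274 kept its direction (-0.51, SE 0.36), with values between -0.63 and -0.30 under all alternatives. In CPM both hucMSC-Exosomes libraries lay below both control libraries for Cd274 and for Tnf. How many of all genes separate in this way was not counted, so the separation alone does not set Cd274 or Tnf apart. Relb was higher (0.29, SE 0.44).

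The share of neutrophils with a UMI of Cd274 was 38.9% ± 2.66 in the control group and 30.1% ± 2.82 in the hucMSC-Exosomes group (SD, n = 2 each), a difference of -8.80 percentage points. An exact two-sided permutation test gave p = 0.3333, the smallest that 2 libraries against 2 allow. When cells were thinned to 1000 UMIs the difference was -5.26 points. The share with Nfkbia was higher by 6.50 points after exosomes (p = 0.3333, exact permutation), but by 1.37 points when thinned. The share with Icam1 differed by -8.59 points (p = 0.3333, exact), and the other 5 genes gave p = 0.667. No share could have passed a threshold of 0.05 in this design.

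In the other classes the direction of the 8 genes varied. In macrophages 7 of 8 were lower in the hucMSC-Exosomes group, with Nfkbia at -0.75 (SE 0.44) and a median of -0.38, and in monocytes 5 of 8. The mix of macrophage clusters differed between libraries, as given above, and its part in the macrophage values, also with a library left out, was not tested. In αβ T cells 5 of 8 were higher, among them Nfkbia (0.47, SE 0.17, unadjusted p = 0.0251) and Nfkbiz (0.66, SE 0.24, unadjusted p = 0.028). In NK cells all 5 genes that passed the filter were higher, and Icam1 (1.04, SE 0.37, unadjusted p = 0.017) and Nfkbiz (1.03, SE 0.41, unadjusted p = 0.0316) had an unadjusted p under 0.05. In dendritic cells Tnfaip2 (0.82, SE 0.28, unadjusted p = 0.0174) and Tnfaip3 (0.92, SE 0.36, unadjusted p = 0.0294) did. Their edgeR adjusted p was at least 0.993. With 1 library left out, 4 values passed in all: Tnf in macrophages (-1.32, edgeR adjusted p = 0.0203), Nfkbia (0.59, 0.0149) and Nfkbiz (0.86, 0.0463) in αβ T cells, all without Control 2, and Nfkbia in NK cells without Control 1 (1.48, 0.0249). These fits called 1.86%, 3.89% and 0.722% of all genes in macrophages, αβ T cells and NK cells. They hold 1 control library, which is assumed to vary like those of the other group. Whether the difference between the groups was itself different in neutrophils and in another class was tested for each gene and class, and none passed. The lowest edgeR adjusted p was 0.453, for Tnfaip3 in neutrophils against dendritic cells.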

How the data were processed

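Single-cell RNA was measured in 4 libraries, 1 per mouse. The authors made the libraries with a droplet 3′ kit and counted reads with Cell Ranger 6.1.2 against mm10, and the deposited matrices hold raw UMI counts per gene and cell. The cell filter was 200 to 3000 genes and a mitochondrial share of at most 10%. The study's methods remove doublets with DoubletFinder; no doublet caller was run here, and the study states more cells than the files hold. Classes were gated on marker lists, with 798 kept cells left out, and were set beside Leiden clusters (scanpy 1.11.5, 2000 variable genes, 30 components, 15 neighbours, resolution 1). Counts were summed per library and class and tested with edgeR 4.0.16 (R 4.3.3; quasi-likelihood, TMM, filterByExpr, Benjamini-Hochberg over all genes): the groups within a class, and the classes with library as a block and gate markers left out. DESeq2 1.42.0 was an alternative, with other scalings, filters, classes, blocks and left-out libraries. The fits were tested on simulated data. Shares carry exact Clopper-Pearson 95% intervals, and a count of 0 a limit of 3 counts. Named genes were the 8 members, those past the threshold in fixed pathway lists, the most similar genes over class sums, the highest co-detection partners and the leading genes of clusters. The members and lists were chosen with earlier results of these data known. Each library is a separate mouse by the study's methods; the labels do not tie replicate numbers across the groups. The genes most like Tnfaip3 are not reported here.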

Additional observations from a re-analysis of the deposited data

How the results depend on the processing

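Of the values for single genes, 639 kept their direction and side of the threshold, 37 lost and 10 gained a call and 18 reversed; of counts and shares, 234 stayed within their limits and 10 did not. Between the groups, members called ranged over left-out libraries from 0 to 1 in macrophages (Tnf, without Control 2), 0 to 2 in αβ T cells (Nfkbia and Nfkbiz, without Control 2) and 0 to 1 in NK cells (Nfkbia, without Control 1), where the main count was 0. Against basophils 3 to 6 members passed, with 3 without Control 2. Of the steps in the class orders 15 passed, but 9 with total counts (chosen after seeing the data) and 8 to 16 over left-out libraries, with 8 without Control 2. The Nfkbia share difference was 1.37 points when thinned and 4.96 with classes from clusters, that of Cd274 -5.26 when thinned, and the median co-detection 1.27 without depth strata. Reversed were Nfkbia between the groups without the upper gene limit (0.12), and over left-out libraries Nfkbia (-0.57 to 0.23), Tnfaip2 (-1.18 to 0.21), Tnfaip3 (-1.85 to 0.0907) and Icam1 (-1.75 to 0.00174), each highest without Control 1 and lowest without Control 2; Cd274 against dendritic cells with clusters (-0.47); Tnf against IL-17 γδ T cells with total counts (-0.22) and over left-out libraries (-0.0395 to 0.25); Icam1 against IL-17 γδ T cells with DESeq2 (0.13) and over left-out libraries (-0.68 to 0.19); and Icam1 against basophils without a library block (0.0801), with DESeq2 (0.14), total counts (0.13), clusters (0.0596) and over left-out libraries (-0.30 to 1.37). The causes were not tested. With classes from clusters, the dendritic cells were the 29 cells of a cluster led by Ccl22 and Fscn1, with 634 CPM of Cd274. That cluster held 24 of the 157 gated dendritic cells, so this setting compared neutrophils with a small part of the gated class. Neutrophils were few in Control 1 (54) and hucMSC-Exo 1 (96), which limits the shares there.

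By the study's methods each library is a separate mouse. Deviations of same-numbered libraries correlated at -0.00086 in neutrophils and -0.25 in macrophages. With 2 libraries per group these values cannot show whether replicate numbers mark anything shared. With the replicate block 0 to 6 genes per class were called between the groups and 0 members, and with the numbers crossed, an alternative chosen after seeing the data, 0 to 43 genes and 0 members. Without a filter on low counts 6 to 58 genes per class were called, and up to 275 without Control 2 and 78 without Control 1.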
